A study of Sus scrofa with 6 samples.

Results

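The genes of autophagy, mitophagy and the lysosome were examined in the longissimus dorsi, the long back muscle, of 6 female Tibetan pigs. Members were chosen by name: 54 gene symbols covering each step from the start of an autophagosome to the lysosome. Of these, 48 were matched to a row among the 25322 genes of the table, and 47 passed a filter on low values (1 FPKM or more in 3 or more of the 6 libraries). ATG101, ATG4B, ATG12, BNIP3, CTSD and TP53INP1 were not matched and were not analysed here. GABARAP was matched but lay under the filter.

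The high altitude group was 3 free-ranging pigs living at an average of 4000 m in the Tibetan highland. The low altitude group was 3 pigs of the same breed kept in the lowland Chengdu plain, at 500 m on average, with daily feeding, from a line held there over generations. Both groups were healthy females, and each library is labelled as a separate animal. Altitude, housing, feeding, place and line history changed together between the groups and cannot be told apart, and the sources used here do not give the animals' age or the time of sampling.

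Autophagy is the delivery of a cell's own contents to the lysosome for breakdown. The ULK kinase complex starts it, a lipid kinase complex around BECN1 marks the membrane, and 2 linked conjugation reactions attach small ATG8 proteins (LC3 and GABARAP) to the growing autophagosome. Cargo receptors tie marked proteins or organelles to the ATG8 proteins, and the closed vesicle then fuses with a lysosome full of proteases. In muscle the pathway is known to be induced by fasting and disuse through FOXO transcription factors, and mitophagy, its mitochondrial branch, clears damaged mitochondria.

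The deposited unit is FPKM, fragments normalised for gene length and library size, so levels may be compared between genes with limits. Such a comparison is uncertain for close copies, such as the GABARAP and LC3 genes, and where a value may be a failed estimate. Absolute depth is unknown. The spacing of the lowest values gave relative depths of 0.856 to 1.22 between libraries, and 9278 to 10100 genes per library reached an FPKM of 1. The muscle markers TNNC2 and MYL1, a troponin and a myosin light chain of fast fibres, were at 11186 to 14823 and 10100 to 11850 FPKM, while the actin gene ACTA1 had a listed 0 in 4 libraries, so a listed 0 can be a failed estimate here. High altitude library 1 stood apart from the rest. It held the lowest value of the 6 libraries in 43.0% of all 10005 genes tested, and its summed FPKM of 4 slow fibre genes was 10493, against 2751 to 6874 in the other 5. Its summed FPKM of 5 fibroblast and matrix markers was 246, against 688 to 1067 in the others, and that of 2 adipocyte markers 3.88, against 4.52 to 22.0. In bulk tissue, fewer cells of a type and less RNA per cell cannot be told apart.

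None of the 47 members passed the threshold between altitudes. Fits used limma on log2(FPKM + 1), low minus high altitude, with Benjamini-Hochberg adjustment over all 10005 genes, of which 0.23% (23 genes) passed an adjusted p under 0.05. Without adjustment 6 members had a p under 0.05, all with higher estimates at low altitude: SQSTM1, WIPI2, VPS18, ULK1, NBR1 and ATG14. They are 12.8% of the members, against 9.42% of all genes in either direction and 6.34% in the direction of higher at low altitude. The smallest adjusted p of a member in limma was 0.431, for SQSTM1.

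As a list the members lay slightly above 0. The median log2 fold change was 0.11 over the 47 members and 0.041 over all genes tested, and 35 members (74.5%) had an estimate above 0, against 57.7% of all genes. These shares move with the scaling of the libraries. With median-of-ratios scaling 31 of 47 members (66.0%) and 50.0% of all genes were above 0, and the medians were 0.064 and −0.00026. All but 1 of the members (ULK1) had an estimate under 0.5 in size, as did 90.9% of all genes, and the median SE of a member was 0.16. The groups did not overlap in 9 members (19.1%), against 16.1% of all genes. In 8 of these the low altitude group was the higher (17.0%, against 11.3% of all genes), and in 1, MAP1LC3A, the high altitude group was (2.13%, against 4.8%).

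**Figure D1:**
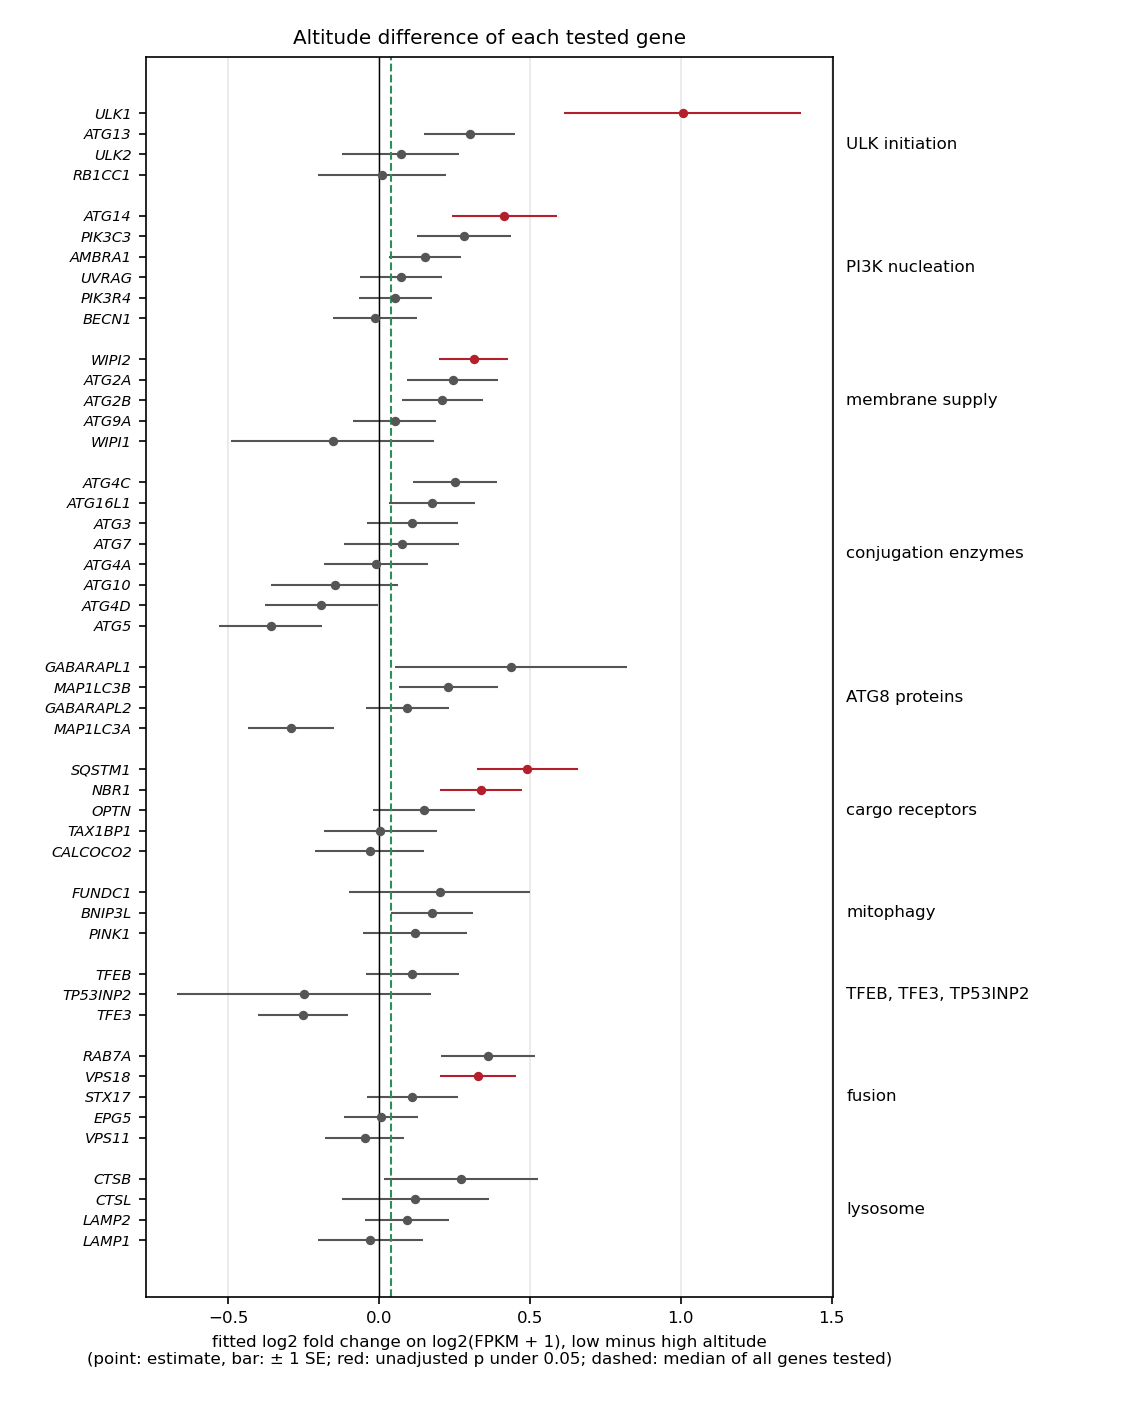
Fitted log2 fold change of each of the 47 tested members on the log2(FPKM + 1) scale, low minus high altitude, grouped by role; points are estimates, bars are ± 1 SE, red marks an unadjusted p under 0.05 and the dashed line is the median of all genes tested (0.041). ULK1 is the 1 member near a log2 fold change of 1, and 6 points are red.

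Levels spanned more than 2 orders of magnitude. The median of the members' mean FPKM was 6.63, against 4.71 over all genes tested, with 14 members at 20 or more, 13 between 5 and 20 and 20 under 5. SQSTM1, the receptor p62, had the highest mean FPKM of the members, 165, followed by the cathepsin CTSB (83.7), the kinase PINK1 (80.3), GABARAPL2 (71.1) and MAP1LC3A (68.3). CTSL (1.57), EPG5 (1.47) and PIK3R4 (1.44) were the lowest of those tested. The highest library was less than 1.5 times the lowest in 24 members and at least 2 times in 9, and the median ratio of 1.499 compares with 1.72 over all genes tested that had no listed 0.

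**Figure D2:**
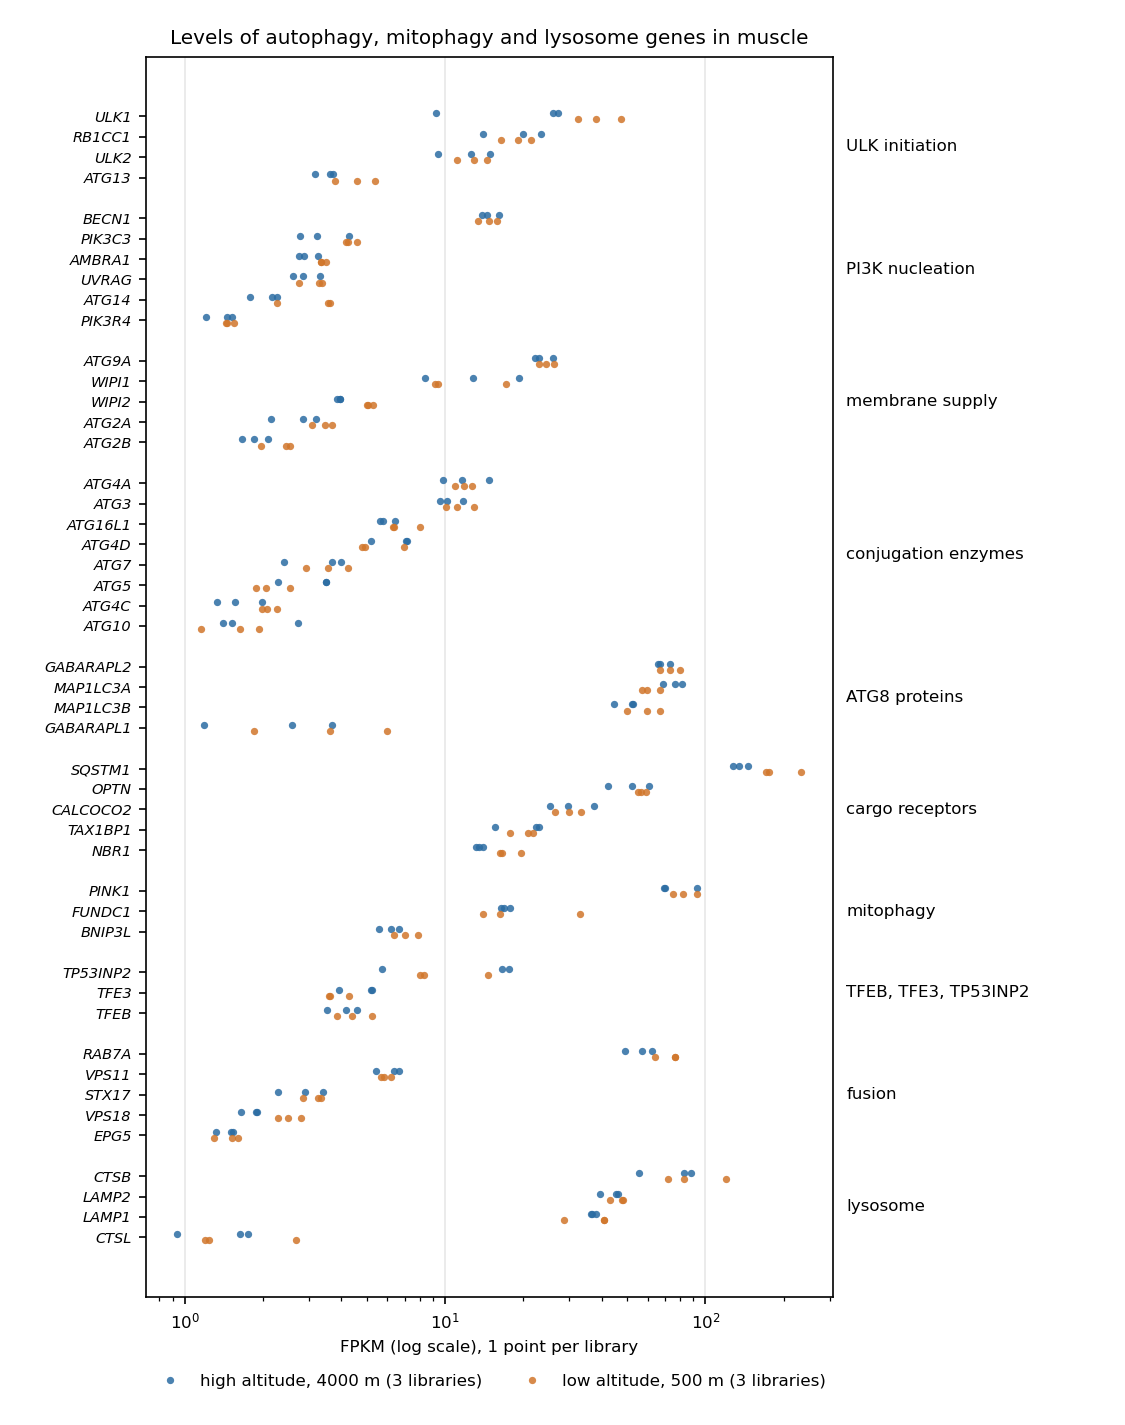
FPKM of 47 members in each library on a log scale, 1 point per library, high altitude in blue and low altitude in orange, with genes grouped by role and ordered by mean level; GABARAP, listed at 0 in 3 libraries, is not drawn. SQSTM1, PINK1, RAB7A, CTSB and 3 ATG8 genes form the upper end, while the genes of conjugation and nucleation lie under an FPKM of 20.

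In the ULK complex, the kinase that starts autophagy, ULK1 was higher in each low altitude library than in each high altitude library. ULK1 (ENSSSCG00000009742) was at 9.25, 27.1 and 26.1 FPKM in high altitude libraries 1, 2 and 3 and at 47.5, 32.5 and 37.9 in low altitude libraries 1, 2 and 3. The first high altitude library was far below the other 5, and the gap between the other 2 of its group and low altitude library 2 was small. The means were 20.8 ± 10.04 (SD, n = 3) and 39.3 ± 7.56, a 1.89-fold ratio. The fitted log2 fold change of ULK1 was 1.01 (SE 0.39, limma, unadjusted p = 0.0369, Benjamini-Hochberg adjusted p = 0.489). Without high altitude library 1 it was 0.53 (limma, adjusted p = 0.320). That library also had the highest slow fibre and the lowest fibroblast and adipocyte sums, whose part in the ULK1 value was not tested.

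ATG13, the regulatory subunit that links ULK1 to its scaffold, was at 3.17, 3.63 and 3.70 at high and at 4.57, 3.78 and 5.37 FPKM at low altitude. The groups of ATG13 did not overlap, by a margin of less than 0.1 FPKM (log2 fold change 0.30, SE 0.15, limma, Benjamini-Hochberg adjusted p = 0.587). ULK2, the related kinase, was at 12.3 ± 2.76 at high and 12.9 ± 1.64 at low altitude (0.072, SE 0.19, limma adjusted p = 0.939), with ranges that overlapped. RB1CC1, the large scaffold also called FIP200, was at 19.1 ± 4.75 and 18.9 ± 2.51. ULK1 made up 25.8, 42.9 and 38.3% of the summed FPKM of the 4 measured genes at high and 56.5, 45.1 and 53.6% at low altitude.

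Of the 6 genes of the lipid kinase complex, which makes the phosphoinositide that recruits later factors, 5 had estimates above 0 and none passed. ATG14, the subunit that directs the complex to autophagosomes, was at 2.17, 1.79 and 2.26 at high and 3.62, 2.26 and 3.55 FPKM at low altitude. Low altitude libraries 1 and 3 were high, and library 2 of that group lay within the high altitude range. Its log2 fold change was 0.42 (SE 0.17, limma, unadjusted p = 0.0473, Benjamini-Hochberg adjusted p = 0.518).

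The catalytic subunit PIK3C3 was at 2.77, 3.24 and 4.26 at high and 4.25, 4.15 and 4.58 at low altitude. High altitude library 3 reached the low altitude range, and the estimate for PIK3C3 was 0.28 (SE 0.16, limma, Benjamini-Hochberg adjusted p = 0.624). AMBRA1, a scaffold that brings BECN1 to the ULK kinase, was at 2.86, 2.75 and 3.25 and at 3.33, 3.49 and 3.35. The groups of AMBRA1 did not overlap but were close (0.15, SE 0.12, limma adjusted p = 0.728). BECN1, the core subunit, was the most abundant gene of the complex, at 14.8 ± 1.19 and 14.7 ± 1.26 FPKM. UVRAG, which takes the place of ATG14 in the endosomal complex, was at 2.92 ± 0.368 and 3.12 ± 0.337, and the regulatory subunit PIK3R4 at 1.39 ± 0.164 and 1.48 ± 0.0608.

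Among genes that supply membrane, WIPI2 had the smallest SE of any member. WIPI2 (ENSSSCG00000007580), which binds the phosphoinositide and recruits ATG16L1, was at 3.95, 3.95 and 3.84 at high and 5.04, 4.995 and 5.28 FPKM at low altitude. The low altitude libraries were all above 4.9 and the high altitude libraries all below 4. The ratio of means was 1.31, and the log2 fold change 0.31 (SE 0.11, limma, unadjusted p = 0.0282, Benjamini-Hochberg adjusted p = 0.461). It stayed between 0.29 and 0.33 with each library left out in turn.

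The lipid transfer proteins ATG2A and ATG2B overlapped between groups. ATG2A was at 2.15, 3.20 and 2.84 and at 3.67, 3.45 and 3.08 FPKM (log2 fold change 0.25, SE 0.15, limma, Benjamini-Hochberg adjusted p = 0.666). ATG2B was at 1.85, 1.67 and 2.08 and at 2.46, 2.535 and 1.96 (0.21, SE 0.13, limma adjusted p = 0.677). ATG9A, the lipid scramblase of the seed vesicles, was the most abundant of the role at 23.7 ± 2.05 and 24.5 ± 1.63. WIPI1, a relative of WIPI2, was at 13.5 ± 5.45 and 11.9 ± 4.53 and varied more within each group than between them.

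The conjugation enzymes were evenly divided, with 4 estimates above and 4 below 0, no gene with groups that did not overlap and a median of 0.033. ATG5, which joins ATG12 and ATG16L1 in the complex that attaches LC3 to lipid, was at 2.28, 3.49 and 3.49 FPKM at high and 1.89, 2.55 and 2.06 at low altitude. The first high altitude library lay inside the low altitude range. The estimate for ATG5, −0.36 (SE 0.17, limma, Benjamini-Hochberg adjusted p = 0.575), was the lowest of all members. Without high altitude library 1 it was −0.51 (limma, unadjusted p = 0.0104, adjusted p = 0.253).

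ATG4C, a protease that trims ATG8 proteins, was at 1.56, 1.33 and 1.98 and at 2.08, 1.98 and 2.27 (log2 fold change 0.25, SE 0.14, limma, Benjamini-Hochberg adjusted p = 0.626). High altitude library 3 and low altitude library 2 met at the same level. ATG16L1, which places the conjugation complex on the membrane, was at 5.80, 5.65 and 6.45 and at 6.31, 6.37 and 8.04 (0.18, SE 0.14, limma adjusted p = 0.736). Low altitude library 3 was above the other 5. In the 5 conjugation genes that remain, the group means over all 6 libraries differed by less than the SD of either group. The protease ATG4A was at 12.04 ± 2.48 and 11.8 ± 0.929 and its relative ATG4D at 6.47 ± 1.11 and 5.57 ± 1.23. ATG3, the enzyme that hands LC3 to lipid, was at 10.5 ± 1.12 and 11.4 ± 1.42, the E1-like activating enzyme ATG7 at 3.36 ± 0.835 and 3.57 ± 0.654, and ATG10, which hands on ATG12, at 1.88 ± 0.724 and 1.57 ± 0.393.

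The 2 measured LC3 genes, whose products coat the autophagosome, differed in sign. MAP1LC3A was at 76.1, 81.5 and 68.5 at high and 59.9, 57.3 and 66.7 FPKM at low altitude, a 1.23-fold higher mean at high altitude. Its groups did not overlap, though high altitude library 3 and low altitude library 3 were within 2 FPKM. MAP1LC3B was at 52.5, 44.6 and 52.8 at high and 59.9, 50.1 and 67.1 at low altitude, with low altitude library 2 inside the high altitude range. The estimates were −0.29 for MAP1LC3A (SE 0.14, limma adjusted p = 0.582, Benjamini-Hochberg) and 0.23 for MAP1LC3B (SE 0.16, limma adjusted p = 0.703), so neither passed. Both kept their sign under each of the 18 alternatives run, but not all of these can change an estimate. Other filters, the fits without trend or with robust variances, the replicate block and leaving out other genes leave it as it is. Those that can change it were the pseudocounts, the scalings, array weights and leaving out a library. Of the summed FPKM of the 5 matched ATG8 genes, MAP1LC3A made up 38.4, 41.9 and 34.8% at high and 29.7, 32.2 and 31.3% at low altitude. GABARAP added at most 0.160 FPKM to this sum, so the share leaves it out in effect.

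Of the GABARAP branch, GABARAPL2 was at 68.7 ± 3.78 and 73.5 ± 6.36 FPKM, as abundant as LC3. GABARAPL1, known as a FOXO target in muscle, was at 3.68, 1.19 and 2.59 and at 1.85, 3.60 and 5.97. Its libraries spread 5.03-fold with complete mixing of the groups (log2 fold change 0.44, SE 0.38, limma, Benjamini-Hochberg adjusted p = 0.761), and the estimate was 0.12 without low altitude library 3. GABARAP was listed at 0 in 3 libraries and at up to 0.160 in the others, so no level is read from it.

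Cargo receptors held the member with the smallest p. SQSTM1 (ENSSSCG00000014016), which binds ubiquitin chains and LC3, was at 127, 145 and 135 at high and 175, 171 and 234 FPKM at low altitude. Each low altitude library was above each high altitude library, and low altitude library 3 was the highest. The means were 136 ± 9.0 and 193 ± 35.0 (SD, n = 3), a 1.42-fold ratio, with a log2 fold change of 0.49 (SE 0.17, limma, unadjusted p = 0.0215, Benjamini-Hochberg adjusted p = 0.431). Without low altitude library 3 it was 0.35 (limma, adjusted p = 0.870).

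NBR1, a receptor built like SQSTM1, was at 13.6, 13.2 and 14.02 and at 19.6, 16.5 and 16.3 FPKM. The groups did not overlap, and low altitude library 1 was the highest (log2 fold change 0.34, SE 0.14, limma, unadjusted p = 0.0403, Benjamini-Hochberg adjusted p = 0.498). OPTN, a receptor of damaged mitochondria and bacteria, was at 42.2, 60.9 and 52.1 and at 56.6, 54.9 and 59.2, with the low altitude libraries inside the high altitude range (0.15, SE 0.17, limma adjusted p = 0.828). CALCOCO2, also called NDP52, was at 30.8 ± 6.03 and 29.9 ± 3.32, and its relative TAX1BP1 at 20.3 ± 4.10 and 20.2 ± 2.10. SQSTM1 accounted for 53.4 to 54.3% of the summed FPKM of the 5 receptors at high and 58.0 to 64.9% at low altitude.

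**Figure D3:**
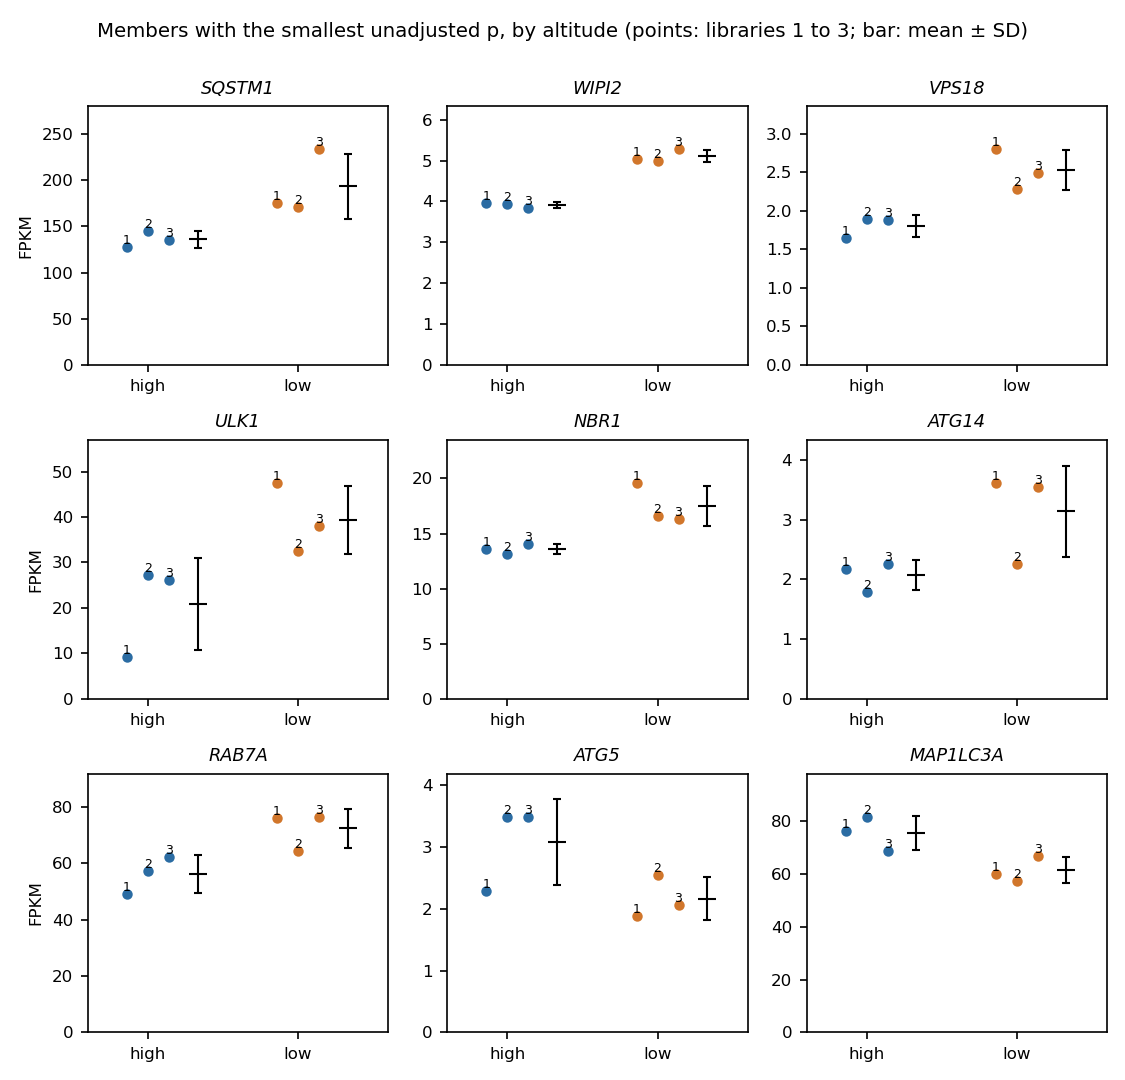
FPKM by altitude group of the 9 members with the smallest unadjusted p; numbered points are libraries 1 to 3 of each group and bars are mean ± SD. The groups are apart in SQSTM1, WIPI2, VPS18, ULK1, NBR1, RAB7A and MAP1LC3A, and overlap in ATG14 and ATG5; none of the 9 passed after adjustment over all genes.

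The mitophagy genes did not separate the groups. PINK1, the kinase that accumulates on damaged mitochondria, was at 92.5, 69.9 and 69.2 at high and 81.9, 75.4 and 92.9 at low altitude (a log2 fold change of 0.12, SE 0.17, limma, Benjamini-Hochberg adjusted p = 0.875). The highest library of each group reached the same level. BNIP3L, the receptor also called NIX, was at 5.60, 6.203 and 6.68 and at 7.05, 6.38 and 7.86 (0.18, SE 0.14, limma adjusted p = 0.727), with low altitude library 2 inside the high altitude range. FUNDC1, a mitophagy receptor linked to hypoxia, was at 16.4, 16.9 and 17.7 and at 16.3, 14.002 and 33.1. Low altitude library 3 was well above the other 5. The estimate for FUNDC1 was 0.20 with it and −0.16 without it (limma, Benjamini-Hochberg adjusted p = 0.879 and 0.959).

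TFEB and TFE3, related transcription factors that drive lysosomal and autophagy genes, were both low and overlapped between groups. TFE3 was at 3.92, 5.24 and 5.19 at high and 3.60, 4.29 and 3.62 at low altitude (a log2 fold change of −0.25, SE 0.15, limma, Benjamini-Hochberg adjusted p = 0.650). TFEB was at 3.52, 4.15 and 4.58 and at 5.26, 3.83 and 4.40 (0.11, SE 0.15, limma adjusted p = 0.869). TP53INP2, a nuclear and autophagosomal cofactor that binds LC3, was at 5.74, 16.6 and 17.6 and at 8.05, 14.7 and 8.31. Low values stood in high altitude library 1 and low altitude libraries 1 and 3, and the other 3 were high, so the spread of TP53INP2 lay within the groups (−0.25, SE 0.42, limma adjusted p = 0.896).

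Among the genes of fusion with the lysosome, VPS18 and RAB7A had groups that did not overlap. VPS18, a core subunit of the HOPS tether, was at 1.65, 1.90 and 1.88 at high and 2.80, 2.29 and 2.49 at low altitude (a log2 fold change of 0.33, SE 0.12, limma, unadjusted p = 0.0329, Benjamini-Hochberg adjusted p = 0.479). RAB7A, the small GTPase of late endosomes and lysosomes, was at 49.2, 57.1 and 62.3 and at 76.2, 64.3 and 76.4. The gap in RAB7A between high altitude library 3 and low altitude library 2 was narrow (0.36, SE 0.16, limma, unadjusted p = 0.0531, adjusted p = 0.538).

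VPS11, the other HOPS core subunit among the members, was at 6.15 ± 0.627 and 5.90 ± 0.291. Further HOPS subunits were in the list of other autophagy genes, where none passed the threshold. VPS41 and VPS39 had groups that did not overlap, low altitude the higher, as in 11.3% of all genes. The groups overlapped in VPS16, and VPS33A lay under the filter. The autophagosomal SNARE STX17 was at 3.41, 2.28 and 2.91 and at 3.35, 3.25 and 2.86 (log2 fold change 0.11, SE 0.15, limma, Benjamini-Hochberg adjusted p = 0.866), with the groups mixed. The tether EPG5 was at 1.46 ± 0.118 and 1.47 ± 0.156.

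The lysosomal members did not separate the groups, and low altitude library 3 was the highest in each of the 4. CTSB, a cysteine protease, was at 55.6, 88.3 and 82.9 at high and 72.0, 83.0 and 120 FPKM at low altitude. The groups mixed, with high altitude library 1 lowest (log2 fold change 0.27, SE 0.26, limma, Benjamini-Hochberg adjusted p = 0.783), and the estimate was 0.061 without low altitude library 3. CTSL, a related protease, was at 0.938, 1.75 and 1.64 and at 1.198, 1.24 and 2.67 (0.12, SE 0.24, limma adjusted p = 0.918), and was −0.12 without that library.

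The membrane proteins that line the lysosome were steadier than the proteases. LAMP2 was at 39.2, 45.2 and 46.2 and at 43.2, 47.8 and 48.4 (log2 fold change 0.093, SE 0.14, limma, Benjamini-Hochberg adjusted p = 0.879), and LAMP1 at 37.0 ± 0.904 and 36.8 ± 6.93. Cathepsins are abundant in macrophages as well as in muscle fibres. Of 12 macrophage markers 8 were matched and none was listed at 0 throughout. Their summed FPKM was 65.4 to 87.5 at high and 50.4, 61.8 and 112 at low altitude, highest in low altitude library 3, as CTSB and CTSL were. C1QA gave 60.8 of the 112 there. CD14, CD68, FCER1G and MRC1 were also highest in that library, while TYROBP, CSF1R and MARCO were highest in a high altitude library. CD68 was at 1.98 to 4.37 and CSF1R at 0 to 0.758. Their part in the cathepsin values was not tested.

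By role, the median log2 fold change was 0.19 in the ULK complex, 0.11 in the lipid kinase complex, 0.21 in membrane supply, 0.033 in conjugation, 0.16 in the ATG8 genes, 0.15 in cargo receptors, 0.18 in mitophagy, 0.11 in fusion, 0.11 in the lysosome and −0.25 in the transcription factors with TP53INP2. The roles hold 3 to 8 tested genes each, and their differences were not tested. With 1 library left out, the median turned sign in the lysosome (−0.025 to 0.20), in conjugation (−0.045 to 0.16) and in the transcription factors with TP53INP2 (−0.37 to 0.0092), and moved over 0.038 to 0.24 in mitophagy, 0.076 to 0.27 in the ULK complex, 0.032 to 0.21 in fusion and 0.11 to 0.27 in cargo receptors. The 9 members without overlap were 19.1% of those tested, against 16.1% of all genes. They were 2 of 4 in the ULK complex, 2 of 5 in cargo receptors and 2 of 5 in fusion. The rest were 1 of 6 in the lipid kinase complex, 1 of 5 in membrane supply and 1 of 4 in the ATG8 genes. There were 0 in conjugation, mitophagy, the lysosome and the transcription factors, of 8, 3, 4 and 3 tested. Differences between roles in this count were not tested.

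Libraries differed in how often they held the extreme value. Low altitude library 3 had the highest value of the 6 libraries in 17 of the 47 members (36.2%), against 15.96% of all genes tested, and the lowest in 1. High altitude library 1 had the lowest value in 20 members (42.6%), close to its 43.0% of all genes. Within the low altitude group, library 2 was the lowest in 19 members (40.4%, against 23.2% of all genes). Library 1 was the lowest in as many, 19 (40.4%, against 38.1%), and library 2 was the highest in 16 (34.0%, against 46.4%). Without low altitude library 3, 0 of the 47 members had an unadjusted p under 0.05 in limma (613 of 10005 genes did, 6.13%). Without high altitude library 1, 6 members did, 3 of them with higher estimates at low altitude (1330 genes, 13.3%).

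**Figure D4:**
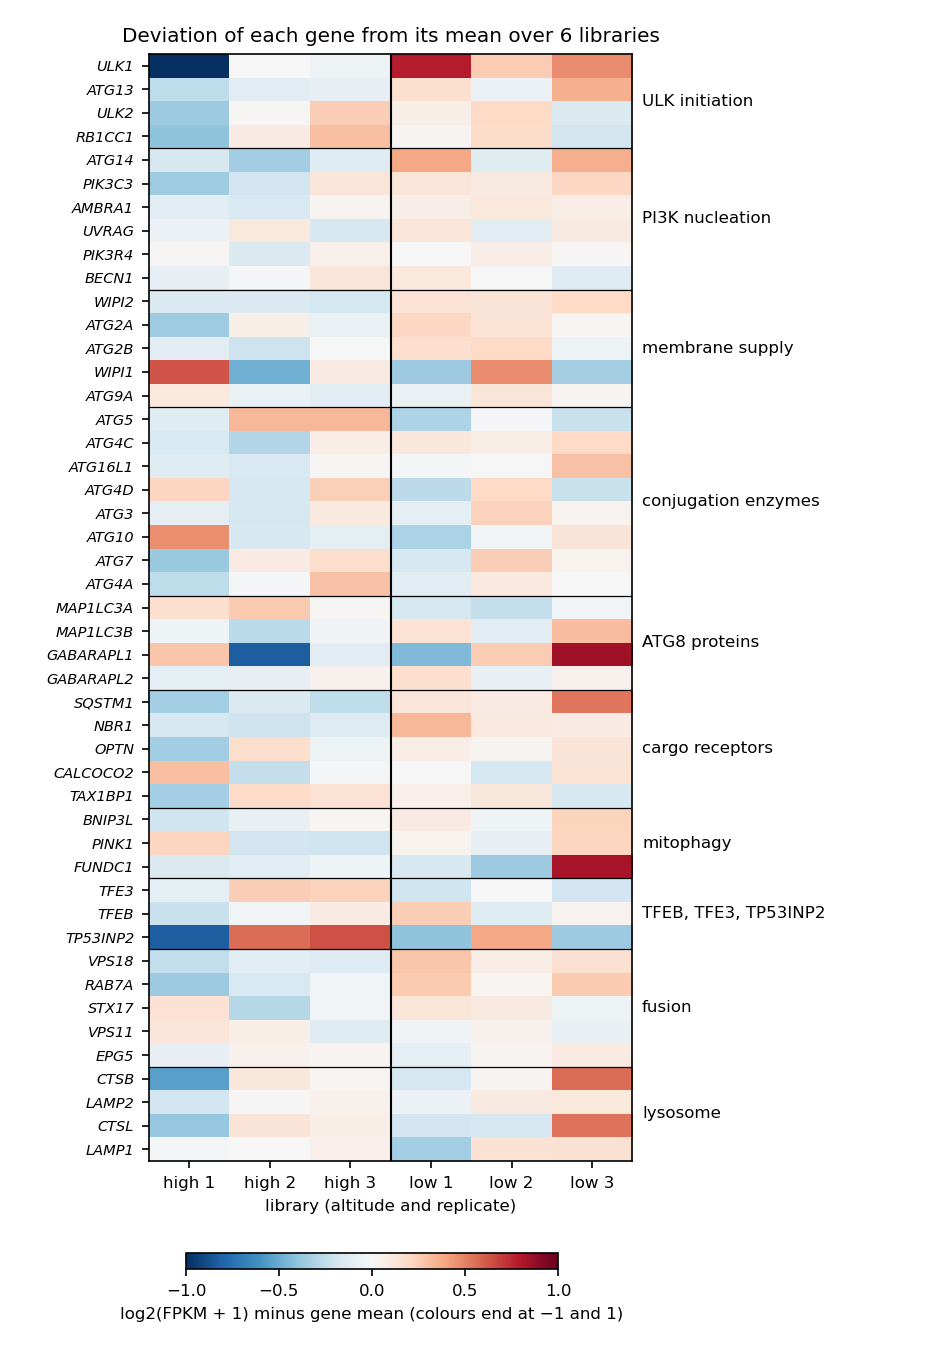
Deviation of each of the 47 tested members from its own mean over the 6 libraries on the log2(FPKM + 1) scale (rows: genes by role, columns: libraries, red above and blue below the mean, colours ending at −1 and 1). High altitude library 1 is blue in ULK1, TP53INP2 and CTSB, and low altitude library 3 is red in SQSTM1, FUNDC1, GABARAPL1, CTSB and CTSL.

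Among genes upstream of or parallel to the ULK complex, the list of FOXO factors and ubiquitin ligases was the most uniform. FOXO1, FOXO3 and FOXO4, which switch on autophagy and atrophy genes, and the ubiquitin ligase genes FBXO32, TRIM63, FBXO30 and FBXO31 all had estimates above 0 and groups without overlap, 7 of 7 with low altitude the higher, against 11.3% of all genes. The list was drawn up knowing that several of these differ in these animals, so the count is no independent evidence. None of the 7 passed over all genes, and their median log2 fold change was 0.87. FOXO3 was at 5.53, 4.49 and 3.51 at high and 12.95, 7.30 and 13.8 FPKM at low altitude (1.14, SE 0.26, limma, Benjamini-Hochberg adjusted p = 0.243), and FBXO32 at 9.90, 8.44 and 14.8 and at 58.3, 25.7 and 74.1 (2.06, SE 0.39, limma adjusted p = 0.155). FBXO32 alone of the named genes passed in an alternative, without low altitude library 2 (2.504, limma adjusted p = 0.0482). Low altitude library 2 was the lowest of its group in these genes, as it was in ULK1, ATG14, SQSTM1, MAP1LC3B and RAB7A among the members; these 5 were picked after their values were seen.

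**Figure D5:**
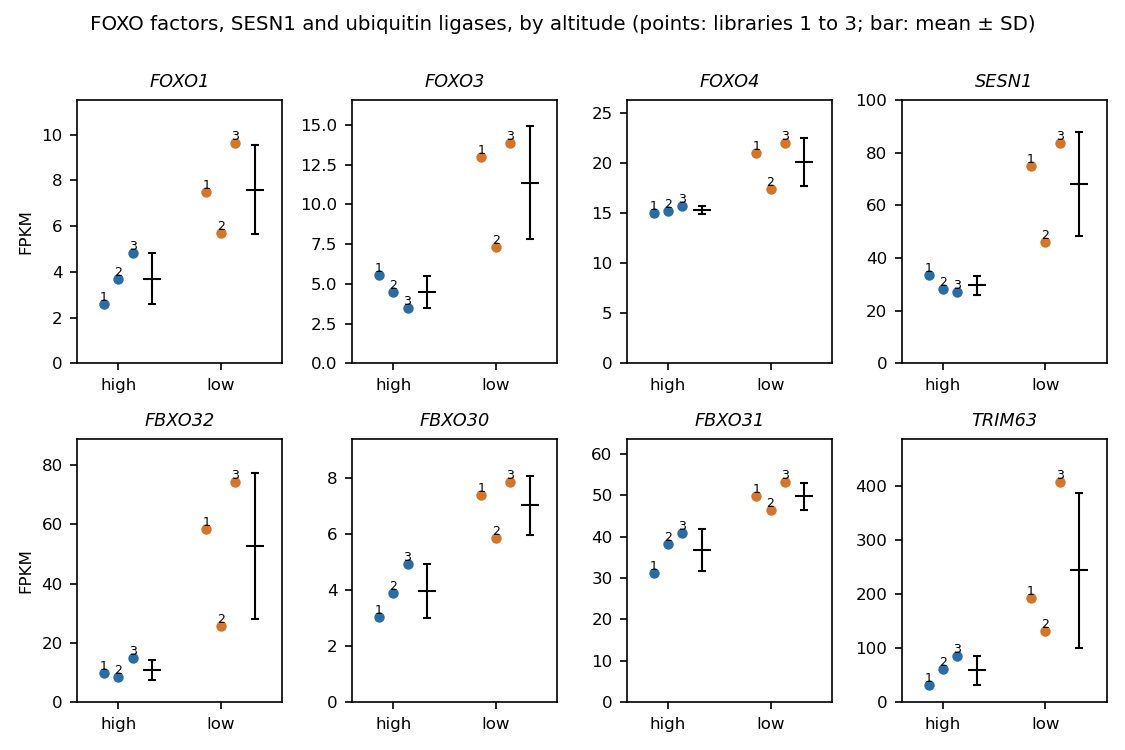
FPKM by altitude group of 3 FOXO factors, SESN1 and 4 ubiquitin ligase genes; numbered points are libraries 1 to 3 and bars are mean ± SD. Every low altitude library lies above every high altitude library in all 8 panels, as in 11.3% of all genes. Low altitude library 2 is the lowest of its group in each panel. The genes were chosen with earlier results of these data known, so their number is no independent evidence. None of the 8 passed after adjustment over all genes.

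Estimates for genes of the kinase complexes that gate ULK1, and of their regulators, were mostly nearer to 0. No catalytic subunit of AMPK was tested, since PRKAA1 lay under the filter and PRKAA2 was not matched. Of 36 genes of mTORC1, the growth kinase that blocks ULK1, and AMPK, the energy sensor that activates it, 25 were matched and 22 tested, with none past the threshold, 15 estimates above 0 and a median of 0.051. SESN1, a stress-induced inhibitor of mTORC1, was at 33.6, 28.1 and 27.0 at high and 74.8, 46.0 and 83.5 FPKM at low altitude, without overlap (1.14, SE 0.24, limma, Benjamini-Hochberg adjusted p = 0.204). TSC2, part of the complex that restrains mTORC1, was at 3.86, 4.35 and 4.70 and at 5.08, 5.67 and 5.68 (0.29, SE 0.13, limma adjusted p = 0.540). MITF, a further factor of the TFEB family, was at 2.10 ± 0.893 and 1.52 ± 0.206 (−0.26, limma adjusted p = 0.732). TFEC, also of that family, was not matched.

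Other autophagy genes, which are not members, had estimates on both sides of 0. Of 28 listed, 26 were matched and 22 tested, none passed and 14 had estimates above 0 (median 0.061). HSPB8, a small heat shock protein that delivers damaged filaments to autophagy with BAG3, was at 177, 194 and 211 at high and 94.0, 148 and 120 FPKM at low altitude, without overlap and 1.61-fold higher at high altitude (log2 fold change −0.70, SE 0.19, limma, unadjusted p = 0.00819, Benjamini-Hochberg adjusted p = 0.332). CALCOCO1, a receptor of the endoplasmic reticulum, was at 23.2, 27.4 and 19.1 and at 39.3, 27.8 and 38.3, with high altitude library 2 and low altitude library 2 almost equal (0.57, SE 0.20, limma adjusted p = 0.442).

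Of 13 further mitophagy genes 7 were matched and tested, with 3 estimates above 0 (median −0.072) and none past the threshold. TOMM7, which holds PINK1 at the outer membrane, was at 188, 246 and 243 FPKM at high and 249, 294 and 264 at low altitude (0.26, SE 0.16, limma, Benjamini-Hochberg adjusted p = 0.671).

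Lysosomal genes beyond the members were centred on 0. Of 31 other hydrolases and membrane proteins 23 were matched and 21 tested, with 10 estimates above and 11 below 0 (median −0.0097). CTSC, a protease that activates granule proteases of immune cells, was at 34.8, 29.5 and 29.8 and at 17.1, 24.6 and 27.2, without overlap (−0.46, SE 0.20, limma, Benjamini-Hochberg adjusted p = 0.538). CTSA, which protects lysosomal glycosidases, was at 18.9, 19.7 and 21.5 and at 22.4, 27.3 and 26.7, also without overlap (0.33, SE 0.14, limma adjusted p = 0.539). Of 16 subunits of the V-ATPase, the proton pump that acidifies the lysosome, 9 were matched and 8 tested, with 3 estimates above 0 and a median of −0.051. ATP6V1C1 was at 8.65 ± 0.588 and 10.3 ± 0.898 and the catalytic subunit ATP6V1A at 4.04 ± 0.637 and 3.41 ± 0.123 (log2 fold changes 0.22 and −0.18, limma adjusted p = 0.657 and 0.719).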

How the data were processed

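RNA of 6 muscles was sequenced as strand-specific libraries, per the labels' protocols. TopHat2 2.0.11 and Cufflinks 2.2.1 are named, with no role, per the submitters' processing notes. No source used here gives the genome build, annotation or filters, and coordinates are left out. The authors deposited FPKM, without counts, in 1 table. A table pairing gene IDs with symbols named 11804 of the 25322 genes. Members, roles and lists were chosen with earlier results of these data known. No count model was used. Genes were fitted on log2(FPKM + 1) with limma 3.58.1 in R 4.3.3 (trend, two-sided, Benjamini-Hochberg over 10005 genes, threshold 0.05). The fit was tested on simulated data. Folds are ratios of mean FPKM. In each of 10 roles the 3 members with the smallest p got full statistics, and in 7 other lists up to 2 genes by p (1 was tested in the list with MITF). Other members have group means. The values of 1 gene of these lists are not reported here. FOXO3, FBXO32, TRIM63 and SESN1 could be named besides, being known from earlier results. By their labels, same-numbered libraries share only a number. Close copies, such as the GABARAP and LC3 genes, are uncertain, since how shared reads were divided is not stated. Other pseudocounts, filters, scalings and fits and leaving out each library gave 17 other settings, and 1 more, leaving out genes with a listed 0 beside an FPKM of 5 or more, was chosen after seeing the data. Figures used matplotlib 3.10.9.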

Additional observations from a re-analysis of the deposited data

How the results depend on the processing

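No member passed the threshold under any of the 18 alternatives. The smallest adjusted p of a member in limma was 0.247 (ATG5, array weights). The number of all genes past the threshold was 23, 16 of them higher at low altitude, and was 6 with no filter, 10 with median-of-ratios scaling and 10 after quantile normalization, 38 with array weights and 4 to 21 with 1 library left out (11 when high altitude library 2 was left out, 6 for low altitude library 1, and 4 for library 3 of either group). Rescaling to a common total gave 32, 26 of them higher. With the replicate number as a block, 19 genes and 0 members passed and 2 members had an unadjusted p under 0.05. Deviations of same-numbered libraries correlated at −0.015, 0.095 and −0.14, and those of the other pairs at −0.15 to 0.16. These values show no sign of a pairing by number, but with 3 libraries per group they cannot exclude it. A filter at a mean FPKM of 5 left 27 members, 18 of them above 0, and moved the medians of the lipid kinase complex to −0.013 (BECN1 alone) and of membrane supply to −0.050 (WIPI1 and ATG9A), since fewer genes were tested. The fusion median was 0.15 with a pseudocount of 0.1, 0.16 with that filter, 0.17 with a common total, 0.067 under median-of-ratios scaling, 0.054 under quantile normalization, 0.19 with array weights and 0.032 to 0.21 with 1 library left out. The cargo receptor median was 0.22 with a common total and 0.11 to 0.27 with 1 library left out, and the conjugation median −0.045 to 0.16. Signs were followed gene by gene only in the 30 members given full statistics. Among these the sign turned for ULK2 (−0.0326 with array weights, −0.094 when high altitude library 1 was left out, −0.0098 for low altitude library 2), CTSL (−0.0375 when high altitude library 1 was left out, −0.12 for low altitude library 3, and up to 0.25 for others), FUNDC1 (−0.16 to 0.43 with 1 library left out), STX17 (−0.0020 without high altitude library 2) and TP53INP2 (−0.72 to 0.0092 with 1 library left out). Other members turned sign with the scaling. Of 47 members, 35 were above 0 as reported, 31 with median-of-ratios scaling, 31 after quantile normalization and 40 with a common total. The cause was not tested. FPKM holds no read counts, so what depth limits could not be computed.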

Other observations

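WIPI1, which binds phosphoinositides on forming autophagosomes, varied between libraries more than between altitudes. It was at 19.2, 8.39 and 12.8 FPKM in the high altitude libraries and at 9.16, 17.1 and 9.37 in the low altitude libraries. The summed FPKM of 4 slow fibre genes (MYL3, TNNC1, TNNI1 and TNNT1) was 10493, 2751 and 6874 in the former and 3126, 4707 and 3106 in the latter. High altitude library 1 was the highest and high altitude library 2 the lowest in both measures, and within the low altitude group library 2 was the highest in both. WIPI1 was picked after its values were seen, and the relation was not tested.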
